A study of Mus musculus with 4 samples.

Results

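Translation initiation and elongation factors were examined in leukaemia stem cells, the leukaemic cells able to restart the disease, taken from the bone marrow of mice. The members are all genes of the deposited expression table whose symbol begins with Eif and a digit, or with Eef, which gave 70 of its 16442 genes. They include the kinases that phosphorylate eIF2, the proteins that bind eIF4E, the enzymes that modify elongation factors, and 4 loci whose symbols mark them as pseudogenes. The cells came from C57BL/6 mice with leukaemia, either wild type (WT) or carrying a knockout of Rreb1 (KO), a zinc-finger transcription factor gene, with 2 libraries per genotype. Libraries were grouped by title, since the genotype entry of KO replicate 2 names Rreb2 instead of Rreb1. One protocol entry speaks of TAMs, which the titles do not. The submitters call the replicates biological. The sources used here do not give the leukaemia model, the part of Rreb1 removed, the age of the mice, or how many animals went into each library.

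As background, initiation begins when eIF2, loaded with GTP and the initiator tRNA, joins eIF1, eIF1A, eIF3 and eIF5 on the small ribosomal subunit. The cap-binding complex eIF4F (the cap-binding protein eIF4E, the scaffold eIF4G and the helicase eIF4A) brings that subunit to the mRNA, and binding proteins that mTORC1 controls can hold eIF4E away from eIF4G. Stress kinases phosphorylate eIF2, which then blocks its exchange factor eIF2B, so that general initiation slows while the mRNA of the stress regulator ATF4 is translated. During elongation eEF1A delivers aminoacyl-tRNA, the eEF1B complex recharges it, eEF2 moves the ribosome along, and eIF5A, which carries the modified lysine hypusine, helps stalled ribosomes to form peptide bonds. Rapidly dividing blood progenitors and leukaemia cells are known for high levels of these factors.

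The start regions of the genes were read from RefSeq promoters of build GRCm38.p6, each covering 250 bases before and 50 bases after an annotated start, which held 53 of the 70 members. Many mRNAs of the translation machinery begin with a run of pyrimidines through which mTORC1 controls their translation, so runs near annotated starts were searched for. Windows are shown for the most abundant member with a run there (Eef1a1) and the one with the longest run (Eif3f). The X-linked and Y-linked copies of 1 gene, which both have a run, are shown too. These runs begin at −5 (Eef1a1), −4 (Eif3f), −1 (Eif2s3x) and 1 (Eif2s3y) relative to the annotated start. Whether the mRNAs of these cells begin with them was not tested. Each window is given 5′ to 3′ with the run, a C followed only by C or T and at least 8 bases long, in capitals.
Eef1a1 (chr9:78481697-78481744, minus strand): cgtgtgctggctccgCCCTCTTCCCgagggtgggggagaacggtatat
Eif3f (chr7:108934395-108934442, plus strand): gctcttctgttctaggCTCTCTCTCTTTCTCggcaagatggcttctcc
Eif2s3x (chrX:94212624-94212671, minus strand): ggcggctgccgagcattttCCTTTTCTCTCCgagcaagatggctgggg
Eif2s3y (chrY:1010575-1010622, plus strand): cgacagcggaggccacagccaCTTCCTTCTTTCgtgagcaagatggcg
A run of this kind beginning between 10 bases before and 20 bases after the annotated start, on the gene's strand, was found in 8 of the 53 members (15.1%) and in 11.7% of the 8398 tested genes with a promoter entry. The 8 tested members with a run had log2 differences between KO and WT from −0.24 to 0.32 with a median of −0.01, and 4 of them lay below 0.

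The letters CACGTG, the E-box that MYC and related factors can bind, were searched for because several of these factors are known MYC targets. The sequence reads the same on both strands. It lay in the promoter window of 14 of the 53 members (26.4%), against 12.2% of tested genes and 8.09% of all 27025 genes with an entry. Counted by promoter window, since a gene can have several, it lay in 23.5% of the members' 68 windows and in 7.15% of all 32851. A match is a description of the letters and not evidence of binding, and annotated starts may not be those used in these cells. Windows around the E-box, in capitals, are shown for eIF4F genes and for the most abundant members that hold it.
Eif4e (chr3:138527023-138527062, plus strand): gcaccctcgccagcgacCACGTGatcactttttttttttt
Eif4g1 (chr16:20672656-20672695, plus strand): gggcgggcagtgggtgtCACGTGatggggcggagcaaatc
Eif4a1 (chr11:69672590-69672629, minus strand): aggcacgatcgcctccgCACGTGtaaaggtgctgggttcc
Eif5a (chr11:69921438-69921477, minus strand): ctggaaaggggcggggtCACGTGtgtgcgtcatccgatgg
Eef2 (chr10:81176571-81176610, plus strand): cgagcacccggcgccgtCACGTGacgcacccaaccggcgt
The 14 members with an E-box had a median log2 difference of −0.08, with 8 below 0 and a range from −0.36 for Eif5a to 0.21 for Eif3a.

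Values are FPKM, fragments scaled to exonic length and to the library's assigned total. Exonic length covers all annotated exons of a gene and can exceed its longest transcript (Eif4a2, 5338 against 2708 bases). Levels of different genes, their ranks and their ratios are therefore only approximate. Depth was 16590830 to 18451251 assigned reads per library, so that 3 reads equal 0.0813 to 0.0904 FPKM where the exons span 2 kb (counting error only). Rreb1 itself was at 5.24 and 6.57 FPKM in WT and 6.10 and 6.93 FPKM in KO over all its exons, so these data do not check the genotype labels, and KO and WT stand for the labels. Progenitor genes were present, with Cd34 at 68.3 and 71.5 FPKM in WT and 50.5 and 49.8 in KO, and Kit at 3.65 and 4.25 against 7.36 and 7.15. Mpo was at 399 and 309 FPKM in WT and 192 and 166 in KO. Of 10 leukaemia and progenitor genes limma called 0. At an unadjusted p below 0.05, 3 were higher and 3 lower (against 11.4% and 9.35% of all tested genes). On reads recovered from the values, limma-voom called Kit higher and Cd34, Flt3 and Mpo lower (against 4.41% and 2.99% of all genes). In the marker counts that follow, rose and fell mean called by limma at an adjusted p below 0.05. By that measure 0.603% of all tested genes rose and 0.408% fell. Of 12 mature neutrophil markers 9 rose in KO and 0 fell. Their summed level was 1436 to 1467 FPKM in WT and 3361 to 4054 in KO. Of 9 tested macrophage markers 4 fell and 0 rose, with a sum over the 10 listed of 655 to 695 FPKM in WT and 504 to 527 in KO. Of 6 tested erythroid markers 5 rose, 4 globin genes and Alas2, and 0 fell (sum over the 10 listed 84.2 to 94.3 and 422 to 515 FPKM). The sixth, Klf1, had a log2 difference of −0.72 (limma adjusted p = 0.207). Of 7 tested B and T cell markers 2 fell and 0 rose (sum over the 9 measured 222 to 233 and 126 to 141 FPKM), and Cd79a had a log2 difference of 0.65 (limma adjusted p = 0.101). No measured marker was at 0 in every library, and Ermap, an erythroid marker, was at 0 in KO replicate 1. The part of these markers in the values below was not tested. In bulk RNA, fewer cells of a type and less RNA per cell cannot be told apart.

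No translation factor gene passed limma's test between KO and WT. Of the 70 members 67 had a mean of at least 1 FPKM and were tested with limma on log2(FPKM + 1), and 0 rose and 0 fell at an adjusted p below 0.05. Of all 11768 tested genes 1.01% were called, 0.603% higher and 0.408% lower. At an unadjusted p below 0.05 there were 11 members (16.4%, against 20.7% of all tested genes), 3 higher (4.48%, against 11.4%) and 8 lower in KO (11.9%, against 9.35%). By limma-voom on reads recovered from the values, 3 members were called, all lower (4.48% of 67, against 2.99% of all genes called lower, 4.41% higher and 7.4% either way), and these were Eif1a, Eif6 and Eef1g. At an unadjusted p below 0.05 limma-voom gave 18 members (26.9%, against 24.8%). The differences were small, from −0.76 to 0.35 on the log2 scale, and for 66 of the 67 members the 95% limits lay within a fold change of 2 in either direction (a log2 difference between −1 and 1).

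**Figure D1:**
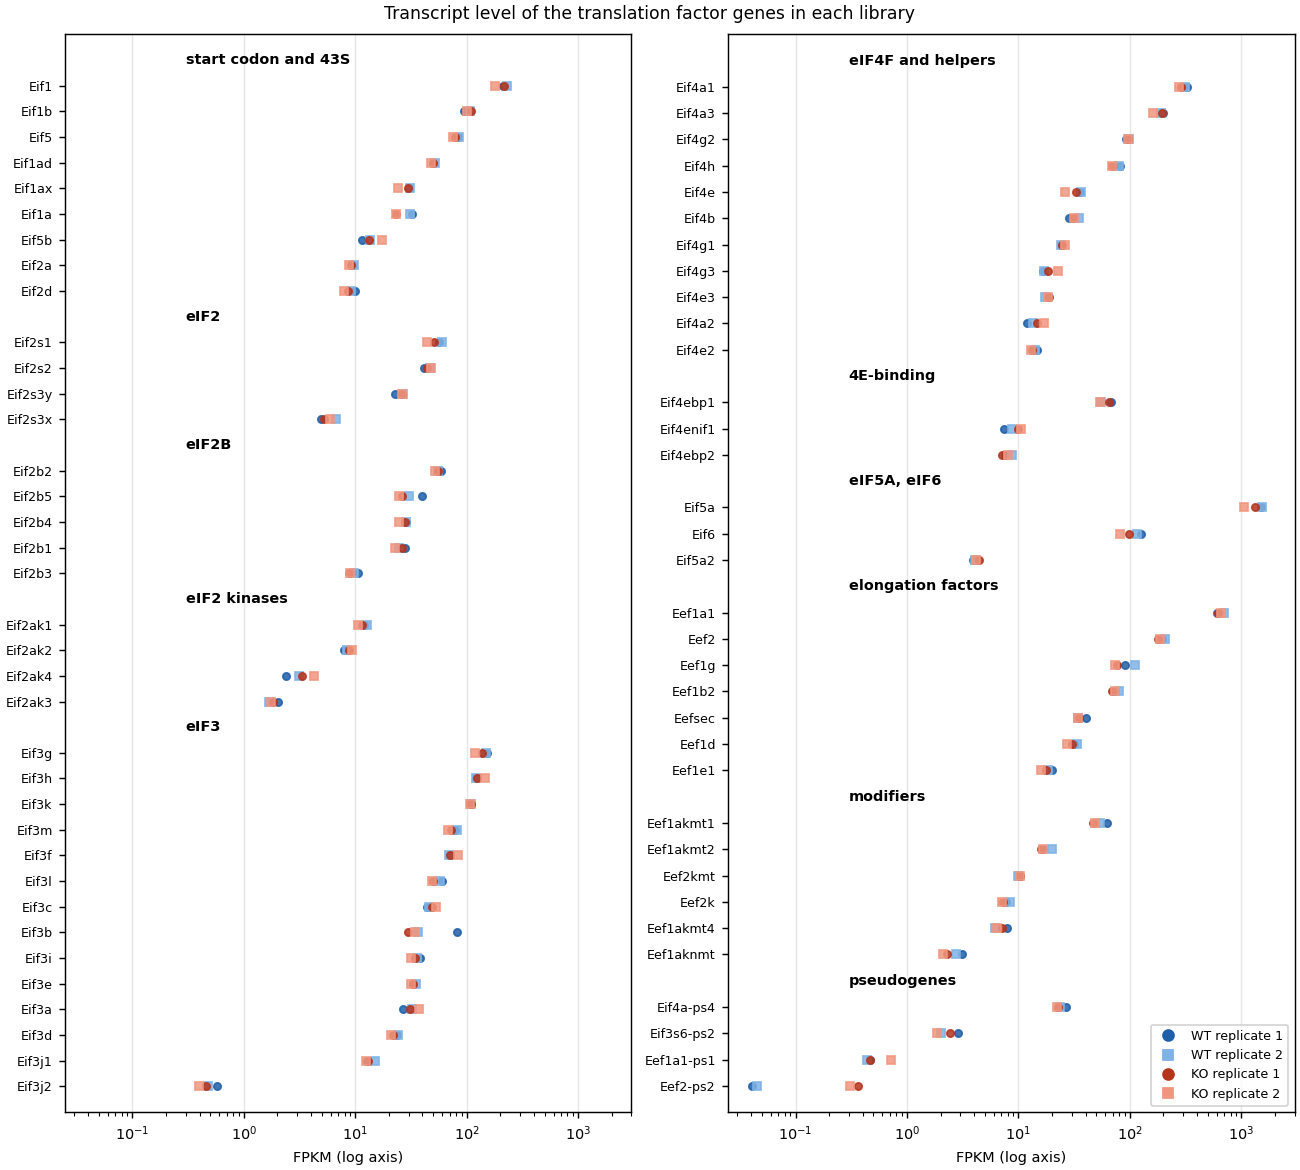
Level of each of the 70 genes in FPKM on a log axis, grouped by role, with 1 point per library (blue WT, red KO; circles replicate 1, squares replicate 2). The genes span from under 1 FPKM to Eif5a at 1056 to 1531 FPKM, and the 4 points of most genes lie close together, Eif3b in WT replicate 1 being an exception.

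The members leaned to lower values in KO as a group. Their median log2 difference was −0.10 against 0.03 over all tested genes, and 48 of 67 (71.6%) lay below 0 against 46% of all tested genes. The groups did not overlap for 40 members (59.7%, against 55.3% of all tested genes). KO was below WT for 30 of them (44.8% of 67, against 24.9%) and above for 10 (14.9%, against 30.5%). KO replicate 2 was the lower of the KO pair in 25 of those 30, the higher in 9 of those 10, and the lower in 41 of all 67. The median was −0.063 without KO replicate 2 and −0.13 without KO replicate 1 or WT replicate 1. With libraries scaled by their median ratio it was −0.12. Across all tested genes, higher levels went with lower differences (Spearman rho −0.229, n = 11768 genes), and in the members rho was −0.245 (n = 67). The rho with exonic length was 0.21 in the members and 0.0789 in 11521 tested genes. These correlations are over genes that share 4 libraries, and the part of level and length was not tested.

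**Figure D2:**
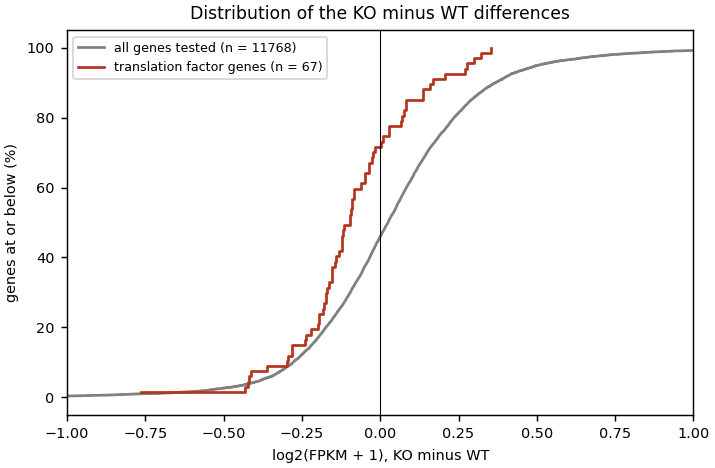
Share of genes (%) at or below each log2(FPKM + 1) difference, KO minus WT, for the 67 tested translation factor genes (red) and all 11768 tested genes (grey). The red curve crosses 0 at 71.6% and the grey curve at 46%.

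Together the 70 genes held 1.52% and 1.57% of the summed FPKM of the WT libraries, against 1.40% and 1.28% for KO, and the groups did not overlap. Eif5a alone made up 22.3% to 27.7% of the members' sum. Without Eif5a the shares were 1.10% and 1.14% in WT and 1.04% and 0.994% in KO, still apart. No test was run on these sums, since the smallest two-sided p of an exact permutation test with 2 libraries per group is 0.333.

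**Figure D3:**
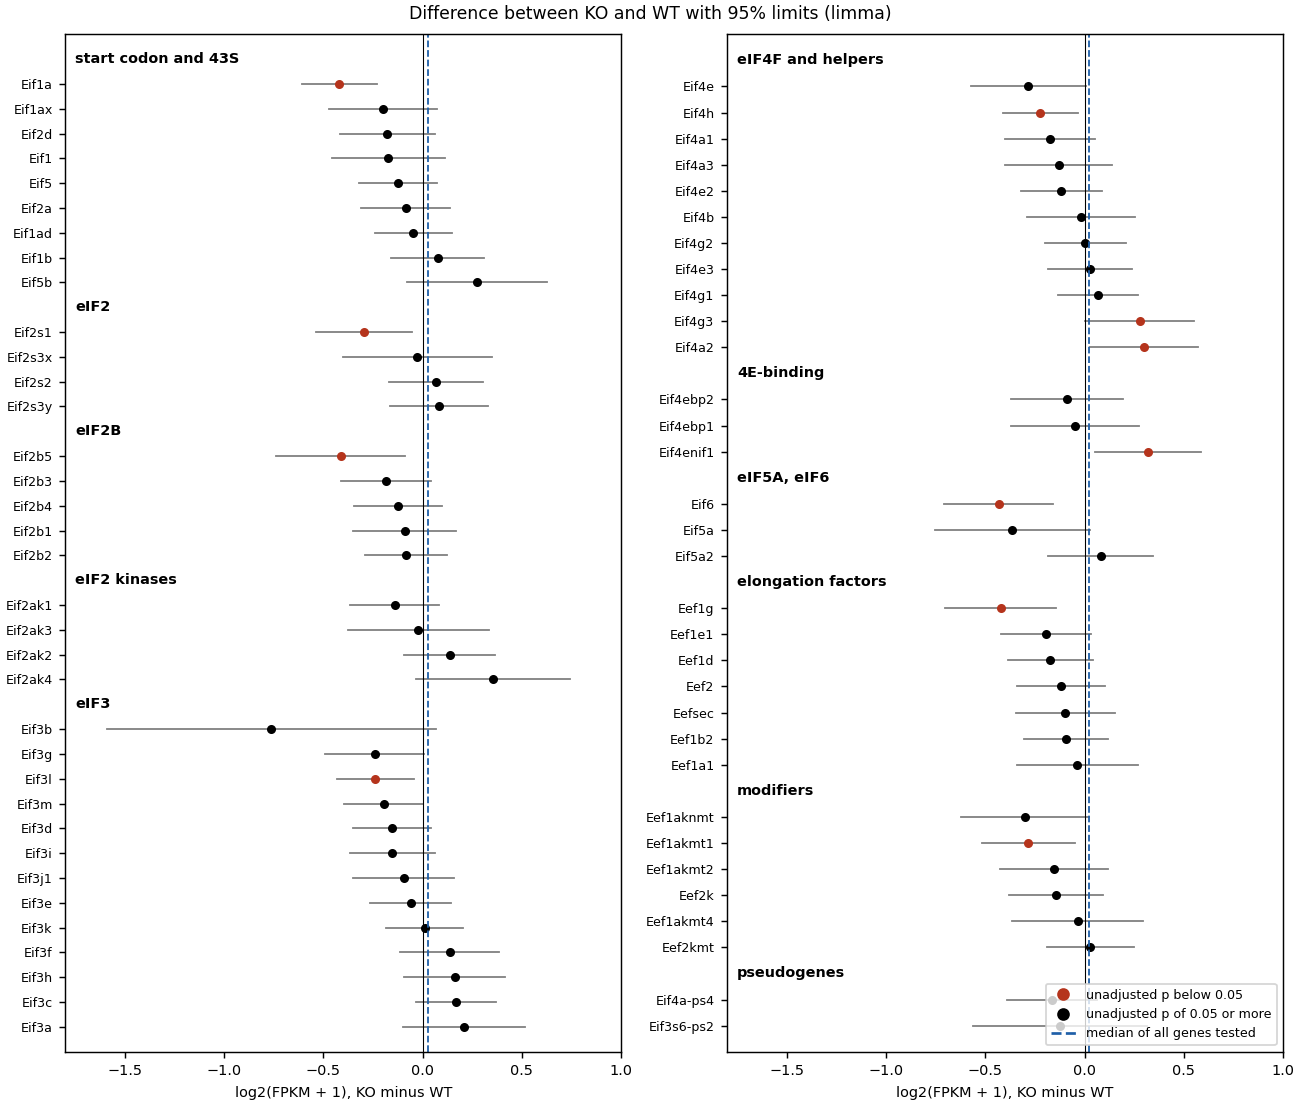
Difference between KO and WT in log2(FPKM + 1) with 95% limits from limma for the 67 tested members, by role. Points in red had an unadjusted p below 0.05 (11 members), the solid vertical line is 0, and the dashed blue line is the median of all tested genes (0.03).

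Factors that select the start codon were led by Eif1, which keeps the scanning ribosome open until a start codon is found. Eif1 was at 213 and 231 FPKM in WT and 215 and 180 in KO, with overlapping groups (log2 difference −0.17, limma adjusted p = 0.431). Eif1a, an autosomal copy of the eIF1A gene (eIF1A promotes scanning), had the smallest p of all members. Its level was 31.9 and 31.2 FPKM in WT and 23.4 and 23.3 FPKM in KO, from 2454 and 2158 against 1793 and 1655 reads. Replicates differed little and the groups lay apart (log2 difference −0.42, SE 0.078, limma adjusted p = 0.077), and limma-voom called it lower (adjusted p = 0.016). Its adjusted p ran from 0.016 to 0.331 over 9 alternatives. Its X-linked relative Eif1ax was at 30.5 and 31.0 FPKM in WT and 29.5 and 24.1 in KO, so both lay lower in KO and the ratio of Eif1a to Eif1ax was 1.05 and 1.01 in WT and 0.792 and 0.968 in KO. Sharing of sequence between them is low: 1.06% of 75-base windows of Eif1a transcripts occur in another gene, and 0% of those of Eif1ax. Eif5b, the GTPase that joins the ribosomal subunits, was on the other side, at 11.6 and 13.4 FPKM in WT and 13.3 and 17.4 in KO, with overlapping groups (log2 difference 0.27, adjusted p = 0.330). Of the 9 tested members of this role 7 lay below 0 (77.8%, against 46% of all tested genes). In this role 0 were called by limma and 1 had an unadjusted p below 0.05 (against 20.7% of all tested genes). Limma-voom called Eif1a.

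The subunits of eIF2 did not move as a set. Eif2s1 encodes the alpha subunit that the stress kinases phosphorylate. It was at 56.3 and 59.6 FPKM in WT and 50.7 and 43.7 in KO, apart between groups (log2 difference −0.29, SE 0.099, adjusted p = 0.191). Eif2s2, the beta subunit, was at 41.3 and 46.5 FPKM in WT and 44.0 and 48.1 in KO, which overlap. The alpha to beta ratio was thus 1.37 and 1.28 in WT and 1.15 and 0.908 in KO, lower in both KO libraries, with KO replicate 2 the lowest. No member of the set was called by limma or limma-voom. An unadjusted p below 0.05 was found for 1 of 4 (against 20.7% of all tested genes).

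The gamma subunit, which binds GTP and the initiator tRNA, has an X-linked and a Y-linked gene. Eif2s3y (chromosome Y, 1010543 to 1028847, GRCm38) was at 22.8 and 26.9 FPKM in WT and 26.1 and 26.3 in KO. Eif2s3x (chromosome X, 94188707 to 94212862) was at 4.88 and 6.69 FPKM in WT and 5.27 and 5.94 in KO, so the X copy stood at 0.202 to 0.249 of the Y copy in all 4 libraries, and the groups overlapped for both genes. Ddx3y, another Y-linked gene, was at 11.9 to 14.1 FPKM, so Y-linked RNA was present in every library. Of the 75-base windows of Eif2s3x transcripts 34.2% also occur in another gene model, Gm2223, against 0% for Eif2s3y. The sources used here do not say how such reads were counted, so the level of Eif2s3x, and the ratio, are uncertain.

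eIF2B recycles eIF2 by exchanging GDP for GTP, and its 5 subunit genes all had differences below 0, as did 46% of all tested genes. Eif2b5, the catalytic epsilon subunit, was at 39.3 and 30.1 FPKM in WT and 26.5 and 24.8 in KO. The groups lay apart, but the WT libraries differed from each other by more than WT replicate 2 did from the KO libraries (log2 difference −0.41, SE 0.133, adjusted p = 0.182). Without WT replicate 1 the difference was −0.23. Eif2b2, the most abundant subunit gene, was at 58.5 and 54.8 FPKM in WT and 55.2 and 51.7 in KO, which overlap (−0.08, adjusted p = 0.60). The others ran from −0.18 for Eif2b3 to −0.09 for Eif2b1. By limma and limma-voom 0 of the 5 were called, and 1 had an unadjusted p below 0.05 (against 20.7% of all tested genes).

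The eIF2 kinases were at low to moderate levels and kept their order in each library. Eif2ak1, the haem-regulated kinase HRI, was highest at 11.9 and 12.6 FPKM in WT and 11.4 and 10.6 in KO (log2 difference −0.14, adjusted p = 0.415). Eif2ak2, the double-stranded RNA kinase PKR, followed at 7.88 and 8.39 against 8.80 and 9.28 FPKM (0.14, adjusted p = 0.439). Eif2ak4, the amino acid sensor GCN2, had the highest difference of all members. It was at 2.39 and 3.12 FPKM in WT and 3.36 and 4.23 in KO, apart by less than the gap between the replicates of either genotype (0.35, SE 0.159, adjusted p = 0.269), from 329 and 386 against 461 and 537 reads. Eif2ak3, the endoplasmic reticulum kinase PERK, was lowest at 2.01 and 1.67 against 1.83 and 1.75 FPKM (−0.02, adjusted p = 0.944). Neither limma nor limma-voom called any of the 4, and 0 had an unadjusted p below 0.05 (against 20.7% of all tested genes).

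eIF3, the largest initiation factor, holds the small subunit and binds mRNA and eIF4G. Of the 14 genes for its subunits 13 were tested, and the subunits differed widely in level. In WT they ran from Eif3g, an RNA-binding subunit, at 151 and 149 FPKM down to Eif3d at 23.7 and 24.3. The Eif3d subunit contacts the mRNA cap. The loosely held subunit gene Eif3j1 was lower at 12.7 and 14.9. Of the windows of Eif3d transcripts 34.2% also occur in the gene model Gm17638. Of those of Eif3j1 47.3% occur in other genes, the largest part in Eif3j2 (35%). The levels of Eif3d and Eif3j1 are therefore uncertain. No eIF3 gene was called by limma or limma-voom, and 1 of 13 had an unadjusted p below 0.05 (against 20.7% of all tested genes). Members lay on both sides, 8 of 13 below 0 (61.5%, against 46% of all tested genes). In both KO libraries 6 were below both WT libraries and 3 above. Over all tested genes these shares were 24.9% and 30.5%.

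**Figure D4:**
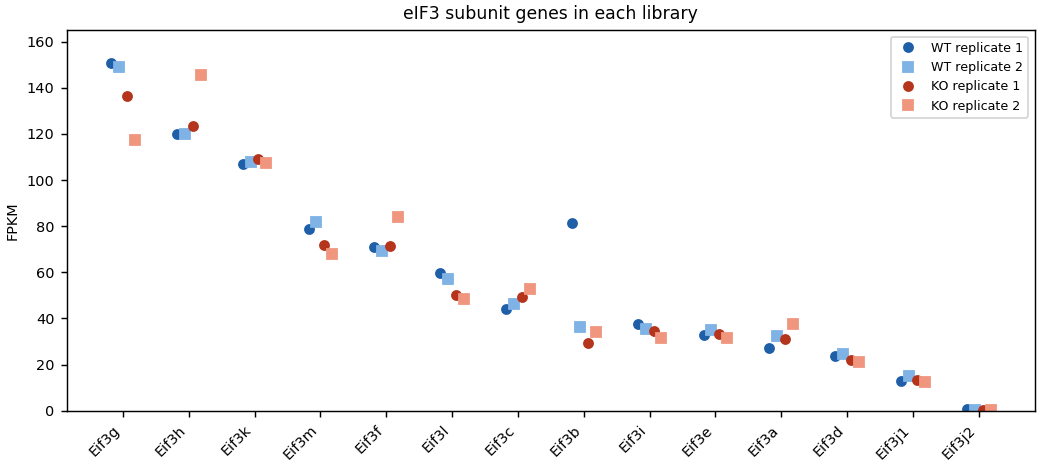
Level (FPKM) of the 14 eIF3 subunit genes in the 4 libraries, ordered by mean. Eif3b stood at 81.4 FPKM in the first WT library and between 29.4 and 36.4 elsewhere, while Eif3h and Eif3f were highest in KO replicate 2.

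Eif3l was at 59.6 and 57.3 FPKM in WT and 50.2 and 48.6 in KO, with replicates close together (log2 difference −0.24, SE 0.079, adjusted p = 0.187). Eif3m was at 78.8 and 81.8 against 72.0 and 67.9 FPKM (−0.20, adjusted p = 0.245), and Eif3g was below the WT range too, at 136 and 117 FPKM in KO (−0.24, adjusted p = 0.250). These are the 3 eIF3 members with the smallest p. On the other side, Eif3c, a core subunit, was at 44.2 and 46.1 FPKM in WT and 49.1 and 52.7 in KO (0.17, adjusted p = 0.302). Eif3h was at 119.9 and 120.0 FPKM in WT and at 123 and 146 in KO. Eif3f was at 71.16 and 69.43 FPKM in WT and 71.23 and 83.93 in KO, so its groups were barely apart. KO replicate 2 was the highest for both genes (log2 differences 0.16 and 0.14). Eif3h shares 12.7% of its 75-base windows with another gene model.

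Eif3b (chromosome 5, 140419328 to 140443360, GRCm38), a core scaffold subunit, had the largest difference of the 67 tested members, and it is named after its values were seen. It was at 81.4 FPKM (5026 reads) in WT replicate 1 and at 36.4, 29.4 and 34.2 FPKM (2022, 1815 and 1950 reads) in WT replicate 2 and the KO libraries. The log2 difference was −0.76 (95% limits −1.59 to 0.07, adjusted p = 0.267), and −0.19 without WT replicate 1. Only 3 of the 16442 genes were over 20 FPKM and over 2 times as high in WT replicate 1 as in every other library. These were Eif3b, Psme3 and mt-Atp8, and the last 2 are named after their values were seen too. None of the 75-base windows of Eif3b transcripts (0%) occur in another gene.

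Within the cap-binding complex, the helicase gene Eif4a1 was the most abundant. It was at 323 and 312 FPKM in WT and 285 and 278 in KO, apart between groups (log2 difference −0.17, SE 0.093, adjusted p = 0.338). The related helicase gene Eif4a2 lay the other way, at 11.8 and 13.6 FPKM in WT and 14.8 and 17 in KO (0.30, SE 0.112, adjusted p = 0.211). The ratio of Eif4a2 to Eif4a1 was 0.0367 and 0.0436 in WT and 0.0518 and 0.0611 in KO, higher in both KO libraries. Of the windows of Eif4a1, 22.5% also occur in the pseudogene Eif4a-ps4, of whose own windows 93.4% occur in Eif4a1. Eif4a-ps4 was listed at 22.1 to 26.8 FPKM, and its reads and those of Eif4a1 cannot be told apart over these windows. Eif4a3, the helicase of the exon junction complex, was at 198 and 190 FPKM in WT and 193 and 163 in KO, which overlap.

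Eif4e, the cap-binding protein itself, was at 35.4 and 36.1 FPKM in WT and 32.7 and 26.1 in KO. Both KO libraries were lower, KO replicate 2 more so (log2 difference −0.28, SE 0.118, adjusted p = 0.246), and the difference was −0.13 without KO replicate 2. Its relatives Eif4e2, a cap binder linked to repression, and Eif4e3 were at 12.9 to 14.5 and 17.3 to 18.8 FPKM. The scaffold gene Eif4g1 was at 24.2 and 23.8 FPKM in WT and 24.4 and 26.1 in KO (0.07, 95% limits −0.13 to 0.27, adjusted p = 0.670). Its relative Eif4g3 was at 16.6 and 16.9 against 18.6 and 22.7 FPKM (0.28, SE 0.112, adjusted p = 0.237). Eif4g2, which lacks the site for eIF4E, was the most abundant of the family at 92.4 to 98.9 FPKM (log2 difference 0.0033). Eif4h, which aids the helicase, was at 81.7 and 79.7 FPKM in WT and 68.5 and 69.5 in KO, with close replicates (−0.22, SE 0.078, adjusted p = 0.198), and Eif4b, with the same role, was at 28.5 and 34.8 against 30.6 and 31.6 FPKM, which overlap. Of the 11 genes 0 were called by limma or limma-voom, and 3 had an unadjusted p below 0.05 (against 20.7% of all tested genes). Eif4h was lower (9.35% of all tested genes were), and Eif4a2 and Eif4g3 were higher (11.4% were).

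The eIF4E-binding proteins restrain eIF4F when mTORC1 is off. Eif4ebp1 was at 67.9 and 55.5 FPKM in WT and 64.8 and 54.3 in KO, a wide spread within each genotype and a log2 difference near 0 (−0.05, 95% limits −0.37 to 0.28, adjusted p = 0.861). Its ratio to Eif4e was 1.92 and 1.54 in WT and 1.98 and 2.08 in KO. Eif4ebp2 was at 7.50 and 8.81 against 7.17 and 8.02 FPKM, so Eif4ebp1 was the main binding protein gene measured, in every library. Eif4enif1, which carries eIF4E into the nucleus, was at 7.40 and 8.71 FPKM in WT and 9.95 and 10.6 in KO, apart between groups (0.32, SE 0.109, adjusted p = 0.193). It was the only 1 of the 3 with an unadjusted p below 0.05 (against 20.7% of all tested genes). Neither limma nor limma-voom called any of the 3.

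**Figure D5:**
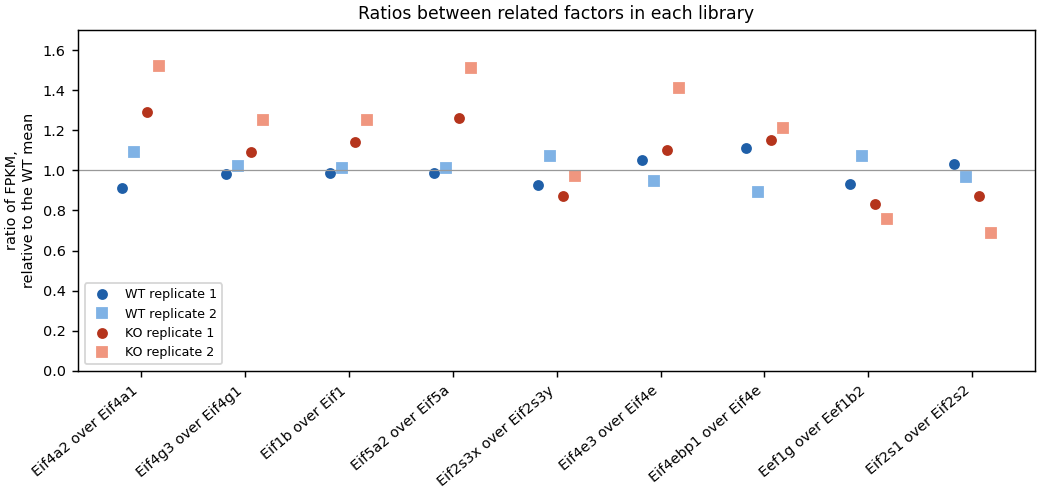
Ratio of FPKM between related factors in each library, divided by the mean ratio of the WT libraries, so that 1 (grey line) is the WT level. Eif4a2 over Eif4a1 and Eif5a2 over Eif5a stood at 1.29 and 1.52, and at 1.26 and 1.51, in the KO libraries, while Eif2s3x over Eif2s3y overlapped between groups. The ratios drawn are a selection from a longer list. Among those not drawn, Eif4a3 over Eif4a1, Eif4g2 over Eif4g1, Eif3j2 over Eif3j1, Eif4e2 over Eif4e and Eif4ebp2 over Eif4ebp1 overlapped between groups. The others not drawn, Eif1a over Eif1ax and Eef2 over Eef1a1, lay apart.

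Eif5a was by far the most abundant member. It was at 1513 and 1531 FPKM in WT and 1327 and 1056 in KO, which placed it 18th in each WT library and 20th and 27th in KO among all 16442 genes. Both KO libraries lay below WT, but the KO libraries differed from each other by more than KO replicate 1 did from WT (log2 difference −0.36, SE 0.160, adjusted p = 0.264). The difference was −0.20 without KO replicate 2 and −0.53 without KO replicate 1. Eif5a2, its low-level relative, was at 3.94 and 4.08 against 4.41 and 4.19 FPKM (0.08, adjusted p = 0.694). Eif6, which keeps free large ribosomal subunits from joining small ones and helps to make them, was at 126 and 115 FPKM in WT and 97.4 and 81.9 in KO. All KO values lay below all WT values (log2 difference −0.43, SE 0.112, limma adjusted p = 0.135), and limma-voom called it lower (adjusted p = 0.024). Over its 9 alternatives the adjusted p of Eif6 ran from 0.024 to 0.453. In the set of 3 genes limma called 0, and 1 had an unadjusted p below 0.05 (against 20.7% of all tested genes).

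All 7 tested genes grouped here as elongation factors had differences below 0, as did 46% of all tested genes. The group includes Eef1e1 by its symbol. KO lay below WT without overlap for 4 of the 7 (Eef1g, Eef1e1, Eef1d and Eef2), against 24.9% of all tested genes. The groups overlapped for the other 3. Eef1a1, which carries aminoacyl-tRNA to the ribosome, was at 608 and 701 FPKM in WT and 615 and 660 in KO (log2 difference −0.04, 95% limits −0.34 to 0.27, adjusted p = 0.890), and the sign turned without WT replicate 2 or without KO replicate 1. Of its windows 26.6% occur in other genes, the largest part in the gene model Gm13456 (15.4%). Eef2, the translocase, was at 193 and 205 FPKM in WT and 178 and 188 in KO (−0.12, 95% limits −0.34 to 0.10, adjusted p = 0.483). Eef1g, the gamma subunit of the exchange complex eEF1B, was at 90.9 and 112 FPKM in WT and 76.2 and 73.6 in KO. The KO libraries were close to each other, and both lay below the WT libraries, which differed from each other (log2 difference −0.42, SE 0.115, limma adjusted p = 0.144). By limma-voom Eef1g was lower (adjusted p = 0.029; range over 9 alternatives 0.029 to 0.459). Of its windows 36% occur in the gene model Gm4366, so its count is uncertain. The other subunit genes, Eef1b2 and Eef1d, were at 69.5 to 79.4 and 27.3 to 33.3 FPKM, with differences of −0.09 and −0.17. Eef1e1, whose product belongs to the multi-synthetase complex of tRNA synthetases, was at 20.1 and 18.5 against 17.6 and 15.9 FPKM (−0.19, adjusted p = 0.293). Eefsec, which delivers selenocysteine, was at 40.1 and 33.9 against 34.6 and 34.2 FPKM. By limma 0 were called, and 1 had an unadjusted p below 0.05 (against 20.7% of all tested genes).

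Among enzymes that modify elongation factors, Eef2k, the kinase that inactivates eEF2, was at 7.65 and 8.35 FPKM in WT and 7.23 and 7.05 in KO (log2 difference −0.14, adjusted p = 0.432). Eef1akmt1, a methyltransferase of eEF1A, was the most abundant at 62.0 and 54.2 against 46.2 and 48.8 FPKM, apart between groups (−0.28, SE 0.096, adjusted p = 0.193). In this set of 6 limma and limma-voom called 0, and 1 had an unadjusted p below 0.05 (against 20.7% of all tested genes). Of the pseudogenes, Eef2-ps2 was under the level filter, with 1 read in each WT library against 9 and 7 for KO. That is 0.0403 and 0.0448 FPKM in WT, under the 3-read level, against 0.363 and 0.305 in KO, above it. The level filter left Eef2-ps2 out of the main test. Eef1a1-ps1 was at 0.435 to 0.719 FPKM and Eif3j2, whose windows are 87.4% shared with Eif3j1, at 0.395 to 0.570, and both were under the filter.

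Other genes of the translation pathway were taken from lists outside the members. For comparison, 20.7% of all tested genes had an unadjusted limma p below 0.05. Of 6 termination and recycling genes limma called 0, and 2 had an unadjusted p below 0.05, both lower (against 9.35% of all tested genes). Limma-voom called the same 2 lower, Etf1 and Hbs1l (against 2.99% of all genes). Etf1, which recognises stop codons, was at 31.6 and 33.6 FPKM in WT and 25.7 and 23.5 in KO (log2 difference −0.39, SE 0.088, limma adjusted p = 0.111). Hbs1l, which rescues stalled ribosomes, was at 14.8 and 15.2 against 11.9 and 11.6 FPKM (−0.33, SE 0.085, adjusted p = 0.135). Both genes lay apart between groups, as did 55.3% of all tested genes, with close replicates.

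Of 6 genes of poly(A)-binding proteins and partners limma and limma-voom called 0, and 1 had an unadjusted p below 0.05. This was Pabpc1, the main cytoplasmic poly(A)-binding protein, at 82.1 and 95.1 FPKM in WT and 104 and 117 in KO (log2 difference 0.32, adjusted p = 0.193). Of 13 tested genes of mTORC1 and signalling to the cap both methods called 0, and 0 had an unadjusted p below 0.05, with Mtor at 4.15 and 4.37 against 4.60 and 5.61 FPKM. Of 9 helpers of start-site choice 0 were called by either method and 1 had an unadjusted p below 0.05, the helicase gene Dhx9 (0.34, adjusted p = 0.236). Of the 2 enzymes that make hypusine, Dhps and Dohh, neither method called any and 0 had an unadjusted p below 0.05. Of 11 genes of the eIF2 stress response limma called 0 and limma-voom 0 of the 10 it tested, and 2 had an unadjusted p below 0.05, both lower. Sesn2, a stress-induced inhibitor of mTORC1, was at 8.48 and 9.64 FPKM in WT and 6.05 and 7.06 in KO (−0.41, adjusted p = 0.154). Ppp1r15a, which removes phosphate from eIF2, was at 14.7 and 17.2 against 13.7 and 11.7 FPKM (−0.31, adjusted p = 0.224). The mRNA of Atf4 itself was at 52.2 and 60.7 against 52.3 and 61.0 FPKM (0.01, adjusted p = 0.983).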

How the data were processed

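The authors deposited 1 table of FPKM values, with 1 added to each, for 16442 genes in 4 libraries. The unit was inferred from the values, since the lowest is exactly 1 and value minus 1, multiplied by exonic length, falls on whole multiples of 1 step per library (99.0% to 99.2% of values of up to 30 reads, tolerance 0.05). The tools named in the submitters' processing notes are DESeq2, featureCounts, CASAVA and HISAT2 2.1.0, and the build is GRCm38, with no roles stated. The library protocol does not mention marking of the strand, so reads of overlapping genes on opposite strands cannot be told apart. Exonic lengths came from GENCODE M21 (GRCm38), to which 69 of the 70 members matched, 2 of them through an older symbol in RefSeq. Reads were recovered for 15778 genes.

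After the added 1 was subtracted, genes averaging 1 FPKM or more were tested with limma 3.58.1 (R 4.3.3, trend, group as the only term, two-sided, Benjamini-Hochberg over all 11768 genes, threshold 0.05) with 2 residual degrees of freedom and 4.10 from the prior. Differences refer to log2(FPKM + 1), so changes of low genes are understated. The procedure was tested on simulated reads. Alternatives were another pseudocount, no filter, scaling by median ratio, a replicate block, each library left out, and limma-voom on the recovered reads. Members, roles and lists were chosen with earlier results of these data known. Named members are those called, the 15 with the smallest p, the most abundant of each role, and 19 set by name, of which Eif4ebp3 and Eef1a2 were not analysed here. Other members are named for completeness after their values were seen. Shared sequence was measured as the percent of distinct 75-base windows of a gene's GENCODE transcripts, on either strand, found in transcripts of another gene. The sources used here give no read length.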

Additional observations from a re-analysis of the deposited data

How the results depend on the processing

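Whether any member was called depended on the test. Under a pseudocount of 0.1, no filter on level, scaling by median ratio, the replicate block and each library left out, limma called 0 members higher and 0 lower, while limma-voom called 3 lower and 0 higher. Members at an unadjusted p below 0.05 numbered 11, also under a pseudocount of 0.1, and 18 by limma-voom. They numbered 12 without the filter, 13 under scaling by median ratio and 16 with the replicate block. The members' median was −0.10, and it was −0.12 under scaling by median ratio and between −0.13 and −0.063 with a library left out, always below 0. The largest departures were −0.13 without WT replicate 1 or KO replicate 1 and −0.063 without KO replicate 2. Of all genes, limma called 71 higher and 48 lower. These counts became 22 and 10 without the filter, 501 and 340 by limma-voom, 0 to 54 and 0 to 15 with a library left out (0 and 0 without WT replicate 1, 8 and 3 without WT replicate 2, 54 and 15 without KO replicate 1, 17 and 7 without KO replicate 2), and 40 and 26 with a replicate block. The cause was not tested; fits with a library left out have fewer samples and assume that the lone library varies like the other group. Equal numbers pair nothing in the labels, and the correlation of the replicate differences of WT and KO was 0.01. The block changed no call among members. Of 288 values of 32 named members under 9 alternatives, 279 kept their direction, and the 9 others belonged to 6 members near 0 (Eif2s3x, Eif2s3y, Eif2ak3, Eif4ebp1, Eif4ebp2 and Eef1a1), each with a library left out. At this depth 3 reads on 2 kb of exons equal 0.0813 to 0.0904 FPKM, a level that 1 member, Eef2-ps2, was under in WT.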
